A study of Mus musculus with 6 samples.

Results

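A set of 9 genes that move cholesterol into, through and out of cells were followed in type II alveolar epithelial cells of the mouse lung. They were Scarb1, Lipa, Npc2, Npc1, Stard4, Abca1, Abcg1, Apoe and Pltp, picked by name, and 9 of 9 were measured among 19938 genes tested. Each had 1 probe set on the array carrying its symbol alone, so no choice between probe sets was needed. Each of the 6 Affymetrix arrays held RNA from type II cells pooled from 3 mice aged 8 weeks, taken 2 hours after isolation by collagenase and differential plating. The 3 pools labelled knockout came from triple-transgenic mice that carried SP-C-rtTA, (tetO)7CMV-Cre and Gpr116flx/flx, in which a doxycycline-responsive Cre under control of the surfactant protein C promoter is meant to delete Gpr116 in these cells. The 3 control pools came from double-transgenic littermates with SP-C-rtTA and (tetO)7CMV-Cre alone, so the Cre transgenes were common to both groups and the floxed allele was not. The comparison addresses how loss of Gpr116, an adhesion receptor that regulates the size of the surfactant pool, alters transcripts of the cells that make surfactant.

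Cholesterol is the main neutral lipid of surfactant, and type II cells obtain much of it from circulating lipoproteins. In cells generally, Scarb1 takes cholesterol from high density lipoprotein, and cholesteryl esters that arrive by endocytosis are split in the lysosome by Lipa and handed by Npc2 to the membrane protein Npc1, which lets cholesterol leave. Stard4 carries sterol through the cytosol, Abca1 exports it to lipid-poor apolipoproteins such as Apoe, Abcg1 exports it to mature lipoprotein particles, and Pltp moves phospholipid and cholesterol between lipoproteins. Abca1, Abcg1, Apoe and Pltp are known targets of the liver X receptors, which sense oxysterols, and Stard4 is a known target of SREBP-2, which is active when sterols are low.

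Facts of the whole series bear on every value below. The probe set of Gpr116, listed as Adgrf5, read 11.89, 11.78 and 11.87 in pools labelled knockout, against 11.49, 11.53 and 11.51 in control pools on the log2 scale. It was therefore not lower under the knockout label (limma adjusted p = 0.0119 for the rise), and the sources used here do not place its probes inside or outside the floxed exons, which means that it checks nothing. Groups and directions rest on the labels, and names such as knockout 1 repeat them. Type II cell markers were high on all arrays, with a mean over 10 genes of 12.2 to 12.3 in either group. All 16 measured ciliated cell markers were lower on the arrays labelled knockout, with a mean of 8.14 to 8.75 there and 9.40 to 9.46 on control arrays. Of the other lists of cell type markers, 1 of 10 type II and 1 of 9 type I markers were higher, as were 1 of 9 neutrophil markers, while 4 of 8 club cell markers were lower. Macrophage markers (17) and endothelial markers (10) had 1 higher and 1 lower each. Fibroblast markers (11) and lymphocyte markers (9) had 0 past the limma threshold. At an unadjusted p under 0.05 there were 3 of 10 type II, 5 of 9 type I, 1 of 9 neutrophil, 5 of 8 club cell, 3 of 17 macrophage and 4 of 10 endothelial markers, with 0 fibroblast and 0 lymphocyte markers. Over all genes 4402 of 19938 had such a p in the limma fit. At a limma adjusted p under 0.05, 3.36% of all genes were higher and 5.13% lower. The counts here, and those of the gene lists below, are to be read beside the share at the same threshold.

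Of the 9 genes, Scarb1 and Npc2 were higher, Pltp was lower and 6 did not pass the test on the arrays labelled knockout (limma, Benjamini-Hochberg adjusted p under 0.05 over all genes). Over all genes tested, 8.49% passed, made up of 3.36% higher and 5.13% lower. The same 3 genes were those whose groups did not overlap, which happened for 27.6% of all genes. The median log2 difference of the 9 genes was -0.05, beside 0.0033 for all genes. The called genes sat at 3 points of the pathway, lipoprotein uptake, the lysosomal lumen and the extracellular exchange of lipid, and not at either exporter. Fewer cells expressing a gene and less of its RNA per cell cannot be told apart in such pools.

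**Figure D1:**
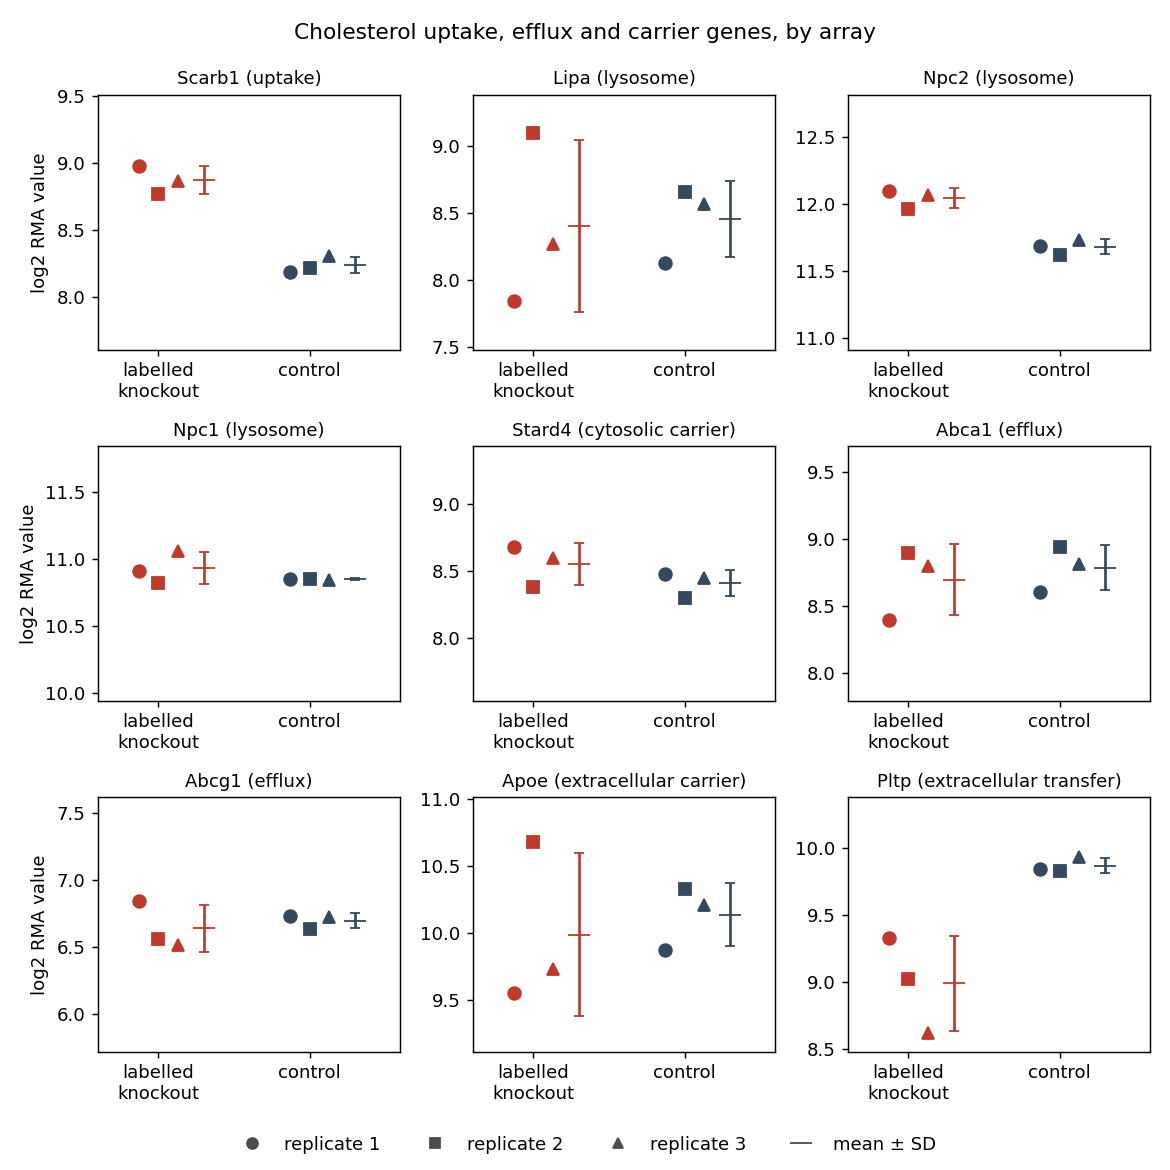
Log2 RMA value (vertical axes, each spanning the same width) of the 9 genes on each array, in the 3 arrays labelled knockout (red) and the 3 control arrays (dark blue), with the mean and SD of each group beside the points. Scarb1 and Npc2 lie above the control arrays without overlap, Pltp lies below them without overlap, and Apoe and Lipa spread over more than 1 log2 unit among the arrays labelled knockout (1.13 and 1.26).

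Promoters of 3 genes show where regulatory letters lie in genes of the set: those of the called genes Npc2 and Pltp, and that of Abca1, a textbook target of the liver X receptors that did not pass the test. Sequences run from 250 bases before to 50 bases after the start of the gene. They come from RefSeq (GRCm38.p6), from which promoters of 5 of the 9 genes were taken. All 3 lie on the minus strand and are printed as the gene reads. Capitals mark matches on either strand to one of 5 searched motifs.
Npc2: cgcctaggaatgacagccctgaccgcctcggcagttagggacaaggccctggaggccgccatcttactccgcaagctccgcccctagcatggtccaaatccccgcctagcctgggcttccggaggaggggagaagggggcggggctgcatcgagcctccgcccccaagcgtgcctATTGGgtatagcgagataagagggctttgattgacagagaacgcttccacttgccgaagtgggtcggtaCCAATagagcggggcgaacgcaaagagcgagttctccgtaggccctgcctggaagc
Pltp: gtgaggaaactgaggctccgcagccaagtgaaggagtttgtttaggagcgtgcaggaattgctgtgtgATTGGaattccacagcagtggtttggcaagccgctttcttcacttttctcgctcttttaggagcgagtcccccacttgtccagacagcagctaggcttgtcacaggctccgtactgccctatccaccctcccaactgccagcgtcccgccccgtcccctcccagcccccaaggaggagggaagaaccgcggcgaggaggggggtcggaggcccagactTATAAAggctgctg
Abca1: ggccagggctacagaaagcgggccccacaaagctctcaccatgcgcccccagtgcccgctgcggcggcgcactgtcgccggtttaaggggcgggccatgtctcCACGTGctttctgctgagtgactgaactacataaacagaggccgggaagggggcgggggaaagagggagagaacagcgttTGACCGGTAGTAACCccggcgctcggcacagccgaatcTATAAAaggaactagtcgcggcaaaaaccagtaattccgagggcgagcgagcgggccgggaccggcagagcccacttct
The Npc2 promoter is chr12:84773063-84773362, that of Pltp is chr2:164857659-164857958 and that of Abca1 is chr4:53159846-53160145. A spaced repeat read by liver X receptors, searched as GGTNA and GGTCA with any 5 bases between them, matched once in the Abca1 promoter, beginning 67 bases before the start, as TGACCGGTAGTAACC on the printed strand. This pattern was loosened with the Abca1 letters in view, and it occurred in 0.207% of 32817 promoters of the same length. It did not match in the Npc2 or Pltp window, nor did the sterol regulatory element searched as TCACNCCAC, present in 1.24% of promoters. An E-box (CACGTG, 7.15% of promoters) matched in the Abca1 promoter and in neither of the others. Npc2 held 2 CCAAT boxes, 75 and 6 bases before the start, and Pltp held 1 (37.4% of promoters hold at least 1). TATAAA, found in 13.6% of promoters, matched in Abca1, 29 bases before the start, and in Pltp, 36 bases after it. The motifs do not overlap one another in these windows, and a match describes letters, not binding.

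Scarb1, the high density lipoprotein receptor SR-BI, stood for uptake. It read 8.98, 8.77 and 8.87 in pools labelled knockout, against 8.19, 8.22 and 8.31 in control pools. Every array labelled knockout exceeded every control array, the nearest pair being 0.46 apart on log2. The mean was 8.87 ± 0.11 under the knockout label and 8.24 ± 0.06 in controls (SD, n = 3 each), a rise of 0.63 ± 0.07 (SE) or 1.55-fold, with a 95% confidence interval of 0.47 to 0.80 (limma adjusted p = 0.00490). This was the one call of the 9 genes that held whichever array was left out, with adjusted p between 0.00285 and 0.0332. Other receptors and adaptors of lipoprotein uptake did not accompany it past the threshold: 0 of 11 measured genes were called by limma, and 1 had an unadjusted p under 0.05. That one was Mylip, the ubiquitin ligase that degrades lipoprotein receptors, at -0.19 ± 0.06 on log2 (adjusted p = 0.131, and 0.0476 without knockout 1). The median difference of the 11 was 0.03.

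Of the 3 lysosomal genes Npc2 was called. Npc2, which lifts cholesterol from the lumen to the limiting membrane, read 12.10, 11.96 and 12.07 in pools labelled knockout, against 11.69, 11.62 and 11.73 in control pools. The groups were 0.23 apart at their nearest, and the rise was 0.36 ± 0.06 (SE) or 1.29-fold, with an interval of 0.22 to 0.51 (limma adjusted p = 0.0148). These values lie near the top of the array scale, whose maxima were 13.32 to 13.43. The call was lost without knockout 3 (limma adjusted p = 0.0535), control 1 (0.0652), control 2 (0.0758) or control 3 (0.0572), while the difference stayed between 0.33 and 0.41 in all 6 such fits.

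Npc1, the membrane protein that receives cholesterol from Npc2, read 10.91, 10.82 and 11.06 in pools labelled knockout, against 10.85, 10.85 and 10.84 in control pools. Knockout 2 lay below every control array and knockout 3 stood highest, so the groups overlapped. The difference was 0.08 ± 0.07 (SE, limma adjusted p = 0.562), with an interval of -0.08 to 0.25. The control arrays were unusually close to each other for this gene, since 98.6% of all genes had a larger SD among control arrays.

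Lipa, the lysosomal acid lipase that frees cholesterol from its esters, varied more among pools than between groups. It read 7.84, 9.10 and 8.27 in pools labelled knockout, against 8.13, 8.66 and 8.57 in control pools. Knockout 1 was the lowest of all 6 arrays and knockout 2 the highest, 1.26 apart on log2. The group means differed by -0.05 ± 0.31 (SE, limma adjusted p = 0.955), and the interval of -0.78 to 0.68 leaves room for a change in either direction as large as that of Scarb1. Without knockout 2 the difference was -0.40 and without knockout 1 it was 0.23, neither of them called.

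Stard4, which shuttles sterol between the plasma membrane and the endoplasmic reticulum, read 8.68, 8.38 and 8.60 in pools labelled knockout, against 8.48, 8.30 and 8.45 in control pools. The highest array was knockout 1, but knockout 2 lay between control values, so the groups overlapped. The difference of 0.14 ± 0.09 (SE) did not pass (limma adjusted p = 0.434), with an interval of -0.07 to 0.36.

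The exporters did not pass. Abca1, which loads cholesterol and phospholipid onto lipid-poor apolipoproteins, read 8.40, 8.90 and 8.80 in pools labelled knockout, against 8.61, 8.94 and 8.82 in control pools. The groups overlapped, and the difference was -0.09 ± 0.14 (SE, limma adjusted p = 0.791) with an interval of -0.43 to 0.25. Abcg1, whose loss in mice leads to lipid build-up in the lung, read 6.84, 6.56 and 6.51 in pools labelled knockout, against 6.73, 6.63 and 6.72 in control pools. Here knockout 1 was the highest and knockout 3 the lowest of the 6 arrays. The difference was -0.06 ± 0.09 (limma adjusted p = 0.797), with an interval of -0.28 to 0.16. For either exporter a fall of the size seen for Pltp lies outside the interval. Abcg1 was dim, with a mean of 6.665 over the 6 arrays, below the array medians of 6.77 to 6.81. Its interval therefore describes the measured signal only.

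Among the 6 other measured efflux transporters of the ABC family 0 were called by limma, and 1 had an unadjusted p under 0.05. It was Abca7, a phospholipid transporter related to Abca1, at 0.17 ± 0.05 on log2 (adjusted p = 0.0915, and 0.0479 when the dimmer genes were left out of the fit). Of the 6 differences 5 were above 0, with a median of 0.12. Over all genes 10132 of 19938 differences were above 0.

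Apoe, the apolipoprotein that carries cholesterol between cells, read 9.55, 10.68 and 9.73 in pools labelled knockout, against 9.87, 10.33 and 10.21 in control pools. Knockout 2 exceeded every control array while knockout 1 and knockout 3 lay below all of them. The difference of the means was -0.15 ± 0.29 (SE, limma adjusted p = 0.832), with an interval of -0.83 to 0.53. Without knockout 2 it was -0.50 (adjusted p = 0.0838). Apoe and Lipa were among the most variable genes of the array: 1.38% and 1.18% of all genes had a larger SD among the arrays labelled knockout, and 1.37% and 0.727% had a larger one among control arrays.

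Apoe, Lipa and Abca1 ordered the arrays alike within both groups, with knockout 1 below knockout 3 below knockout 2, and control 1 below control 3 below control 2. Of all genes 3.24% had both of these orders. Of the 11 fibroblast markers, 6 had the order among the arrays labelled knockout and 3 of them had it in both groups, where 14.1% and 3.24% of all genes did so. The mean of the 11 was 9.34, 10.1 and 9.60 on knockout 1, 2 and 3, and 9.83, 9.85 and 9.72 on control 1, 2 and 3. Tcf21, a transcription factor of lung fibroblasts, read 7.74, 10.04 and 8.90 in pools labelled knockout, against 8.78, 9.21 and 9.07 in control pools, which is the order of Lipa over all 6. Pdgfra, a receptor that marks lipid-storing fibroblasts, read 9.12, 11.08 and 10.18 in pools labelled knockout, against 10.23, 10.80 and 10.62 in control pools, which is the order of Apoe. Other markers of the list ran otherwise. Dcn read 11.41, 10.63 and 10.48 in pools labelled knockout, against 11.54, 11.12 and 10.92 in control pools. Lum read 5.21, 4.61 and 4.98, against 5.90, 5.12 and 4.85. Both were highest on knockout 1 and on control 1 within their groups. The part of fibroblast RNA in the spread of Apoe, Lipa and Abca1 was not tested. The mean of the 17 macrophage markers, from cells that also express these genes, was 6.11 to 6.21 on the arrays labelled knockout and 6.10 to 6.16 on control arrays. These means lie below the array medians of 6.77 to 6.81, and the part of macrophage RNA was not tested either. Of these 17 markers 1 had the order among the arrays labelled knockout and 0 had it in both groups.

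**Figure D2:**
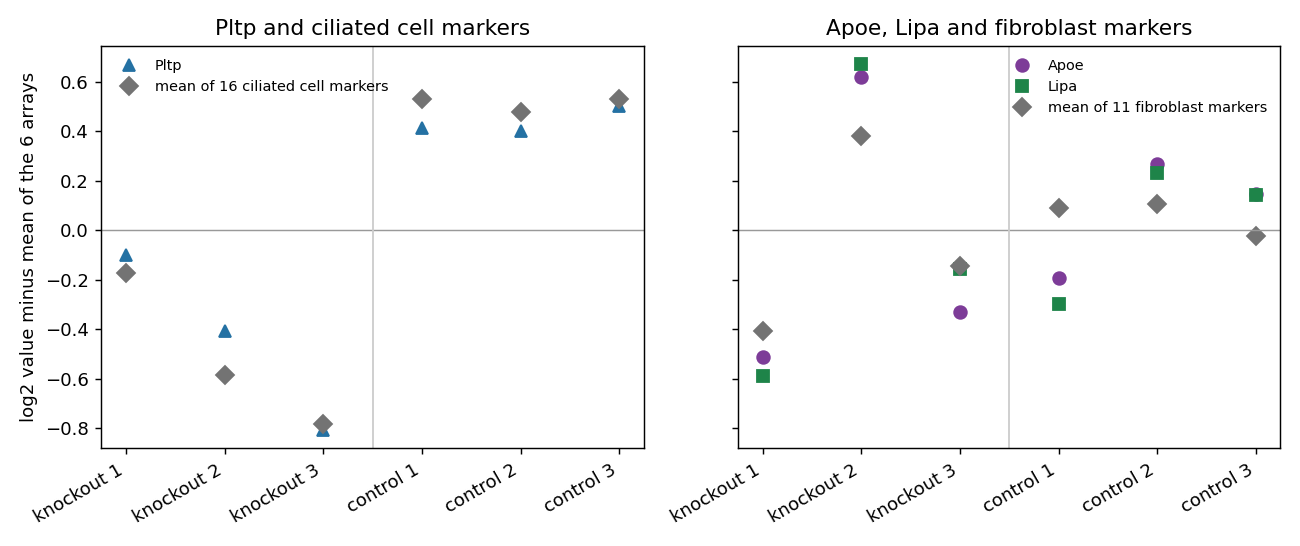
Log2 values on each of the 6 arrays, minus the mean of the 6, for Pltp with the mean of 16 ciliated cell markers (left) and for Apoe and Lipa with the mean of 11 fibroblast markers (right). Pltp and the ciliated markers are lower on the 3 arrays labelled knockout, lowest on knockout 3. Apoe, Lipa and the fibroblast mean are highest on knockout 2 and lowest on knockout 1.

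Pltp, the phospholipid transfer protein, was the gene of the set that fell. It read 9.33, 9.02 and 8.62 in pools labelled knockout, against 9.84, 9.83 and 9.93 in control pools. The groups were 0.50 apart at their nearest. The arrays labelled knockout spread over 0.71 and the control arrays over 0.10. The fall was -0.88 ± 0.16 on log2 (SE, n = 3 each), which is 1.84-fold lower, with an interval of -1.26 to -0.49 (limma adjusted p = 0.0217). It lost its call without control 1 (limma adjusted p = 0.0825), control 2 (0.0850) or control 3 (0.1004), and the difference was -0.69 without knockout 3 and -1.05 without knockout 1, both called (adjusted p = 0.0243 and 0.00265). Knockout 1 was highest and knockout 3 lowest in its group, as for the ciliated marker mean, which read 8.75, 8.34 and 8.14 on knockout 1, 2 and 3 and 9.46, 9.40 and 9.45 on the control arrays. That order was found in 16 of 16 ciliated markers and in 17.0% of all genes. It was also found in 3 of 8 club cell, 4 of 17 macrophage and 2 of 9 lymphocyte markers. Of the rest, 1 of 11 fibroblast and 1 of 10 endothelial markers had it, and 0 type II, type I and neutrophil markers did. The part of ciliated cell RNA in the fall of Pltp was not tested.

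**Figure D3:**
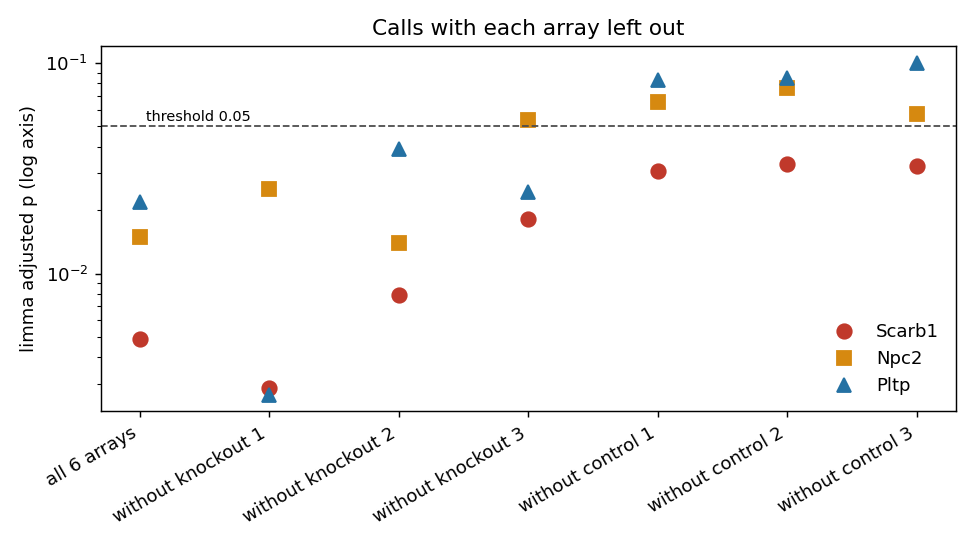
Limma adjusted p (vertical log axis) of the 3 called genes with all 6 arrays and with each array left out in turn, with the threshold of 0.05 as a dashed line. Scarb1 stays below the threshold in every fit, Npc2 rises above it when knockout 3 or a control array is left out, and Pltp when a control array is left out.

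Likeness of pattern was taken as Pearson's r of log2 values over the 6 arrays, among all tested genes with a full gene symbol. Closest to Scarb1 were Klhdc2, a substrate receptor of a ubiquitin ligase (r = 0.9998), the tRNA exporter Xpot (0.9996) and the palmitoyltransferase Zdhhc3 (0.9967). Of these, Klhdc2 was called, with a log2 difference of 0.28 ± 0.05 (limma adjusted p = 0.0200). Closest to Npc2 were the mitotic kinase Pbk (r = 0.9963), the actin-binding protein Aif1l (0.9958) and Nxt1, a factor of mRNA export (0.9952), all called higher. Closest to Pltp were Prrg4, Susd2 and Rpap3 (r = 0.9997, 0.9985 and 0.9985), with log2 differences of -0.79 ± 0.14, -1.05 ± 0.17 and -0.23 ± 0.06, the first pair called (limma adjusted p = 0.0198 and 0.0139).

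Around the 9 genes, 102 of 116 listed genes of cholesterol handling were measured, of which 13 were higher, 2 were lower and 87 did not pass. That is 12.7% higher and 1.96% lower, beside 3.36% and 5.13% of all genes, and the median log2 difference was 0.057 beside 0.0033. Of the 13, 6 were enzymes of sterol synthesis, and without these 17 measured enzymes 7 of 85 genes were higher (8.24%) and the median difference was 0.02. Brighter genes were called more often. With the dimmer genes left out of the fit, 7.79% of all genes were higher and 9.07% lower. Of the 74 listed genes kept there, 15 were higher (20.3%) and 3 lower (4.05%). The number higher was 8 without knockout 2 (7.84%, beside 4.19% of all genes in that fit) and 4 without knockout 3 (3.92% beside 1.55%). It was 5 without control 1 (4.9% beside 1.03%), 5 without control 2 (4.9% beside 0.722%) and 6 without control 3 (5.88% beside 0.792%). The number lower was 4 without knockout 2 (3.92% beside 5.29% of all genes). It was 1 (0.98%) when a control array was left out, beside 1.95% of all genes without control 1, 1.86% without control 2 and 1.51% without control 3. It was also 1 with replicate number as a blocking term (0.98% beside 4.86%).

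Intracellular sterol carriers gave most of the calls outside synthesis, with 4 of 22 higher (18.2%) and 2 lower (9.09%). Over all genes the shares were 3.36% and 5.13%. Tmem97, an endoplasmic reticulum protein that binds Npc1, read 10.67, 10.61 and 10.67 in pools labelled knockout, against 10.21, 10.15 and 10.28 in control pools, a rise of 0.44 ± 0.06 (SE, limma adjusted p = 0.00654). The START-domain carriers, the late endosomal Stard3 and the cytosolic Stard5, rose by 0.35 ± 0.07 and 0.31 ± 0.07, and sterol carrier protein Scp2 rose by 0.37 ± 0.08. All 3 lacked overlap between groups, as did 27.6% of all genes. Osbpl6, of the oxysterol-binding protein family, fell to 9.24, 9.0 and 9.03 on the arrays labelled knockout, against 9.82, 9.83 and 9.94 on control arrays, a difference of -0.77 ± 0.08 (limma adjusted p = 0.00450). Its relative Osbpl3 fell by 0.37 on log2 (SE 0.08), a call that the replicate block removed (adjusted p = 0.0590). Tmem97 and Osbpl6 were called in each fit with 1 array omitted. Stard3 was no longer called when knockout 3 or a control array was omitted (adjusted p of up to 0.0936). Scp2 (up to 0.126) and Stard5 (up to 0.121) were also lost without knockout 2, and Osbpl3 (up to 0.116) was lost without any array but knockout 3.

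**Figure D4:**
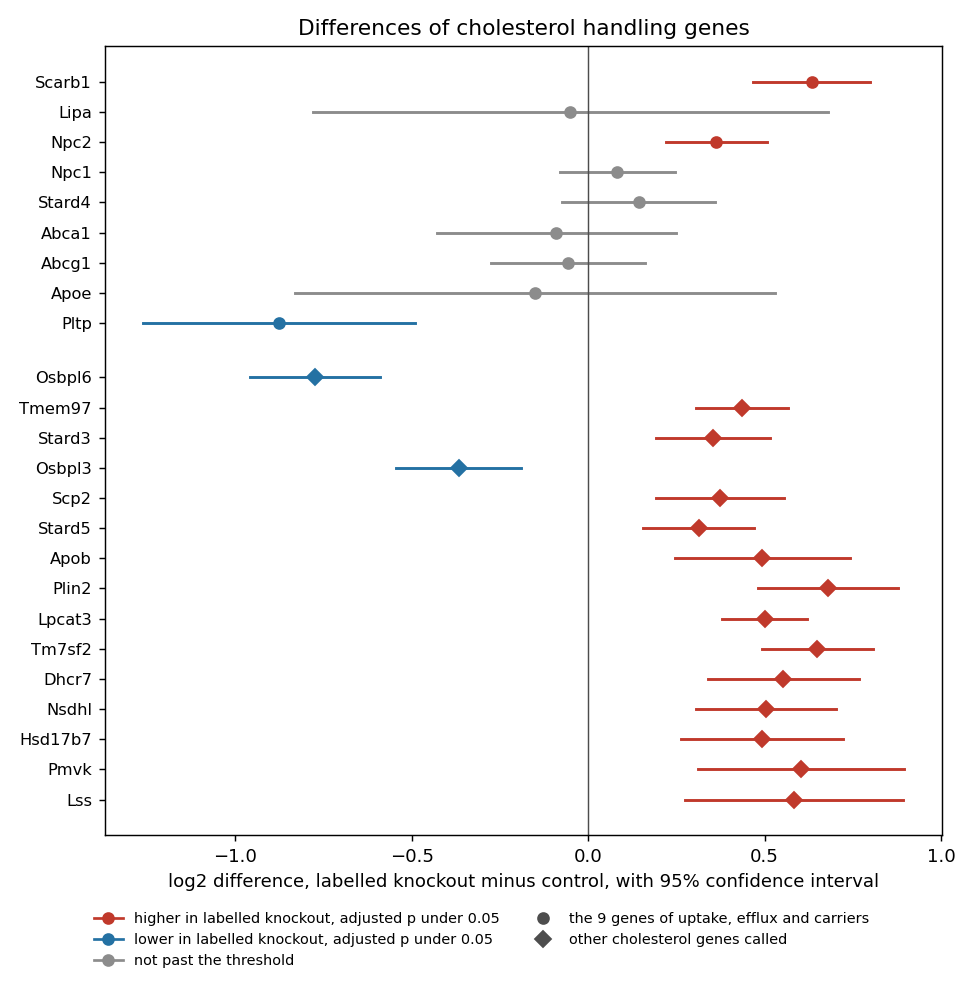
Log2 difference of the arrays labelled knockout minus control arrays with its 95% confidence interval, for the 9 genes (circles) and the 15 other cholesterol genes called (diamonds). Intervals of Apoe (-0.83 to 0.53) and Lipa (-0.78 to 0.68) are the widest of the 9 and cross 0, while those of Scarb1, Npc2 and Pltp do not.

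Sensors, their targets and the synthesis enzymes were also counted. Of 6 measured genes on the list of liver X receptors, partners and targets outside the set, 1 was called, the lysophospholipid acyltransferase Lpcat3. It read 11.11, 11.04 and 11.07 in pools labelled knockout, against 10.54, 10.62 and 10.56 in control pools, a rise of 0.50 ± 0.05 (SE, limma adjusted p = 0.00460). A target placed on another list is not in this count. Beside Lpcat3 the known targets Abca1, Abcg1 and Apoe of the set did not pass, and Pltp fell. Of 8 measured regulators of the SREBP pathway 0 were called by limma and 1 had an unadjusted p under 0.05. This was the sterol-responsive retention protein Insig1, at 0.23 ± 0.09 (adjusted p = 0.201). Of 17 measured enzymes of sterol synthesis 6 were higher (35.3%) and 0 lower, beside 3.36% and 5.13% of all genes. The median difference was 0.35, and 16 of the 17 differences were above 0, as were those of 10132 of all 19938 genes. The exception was Ebp, the sterol isomerase, which read 8.69, 8.62 and 8.34 in pools labelled knockout, against 8.89, 8.89 and 9.07 in control pools, without overlap. Its difference of -0.40 ± 0.10 did not pass (limma adjusted p = 0.0621), but did without knockout 1 (0.0362), with the dimmer genes left out (0.0456) and with median-centred arrays (0.0496). The 6 called were Tm7sf2, Dhcr7, Nsdhl, Hsd17b7, Pmvk and Lss, between 0.49 and 0.65, and Tm7sf2 alone of them kept its call whichever array was left out. The highest adjusted p without 1 array was 0.0657 for Dhcr7 and 0.0710 for Nsdhl. It was 0.112 for Hsd17b7, 0.116 for Pmvk and 0.126 for Lss, and each of these 3 was lost without any array but knockout 1. Dhcr7 was lost without knockout 3 or control 1, and Nsdhl also without control 2. With the block Fdps (0.39 ± 0.10, adjusted p = 0.0534) and Idi1 (0.35 ± 0.15, adjusted p = 0.226) also passed, at 0.0347 and 0.0445. Fdps passed as well with the dimmer genes left out, with a variance trend and with median-centred arrays (0.0387 to 0.0453).

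Lipoprotein proteins and esters completed the lists. Of 18 measured apolipoproteins and lipoprotein enzymes 1 was called, Apob, the structural protein of low density lipoprotein, at 6.76, 6.79 and 6.97 in pools labelled knockout, against 6.52, 6.37 and 6.15 in control pools (0.49 ± 0.11, SE, limma adjusted p = 0.0337). The call was lost under the replicate block (adjusted p = 0.0684) and without knockout 3, control 2 or control 3 (up to 0.117). Of 5 measured genes of ester formation and breakdown 1 was called, the lipid droplet coat protein Plin2, at 10.42, 10.65 and 10.56 in pools labelled knockout, against 9.74, 9.89 and 9.96 in control pools (0.68 ± 0.08, limma adjusted p = 0.00598), a call kept whichever array was left out. Of 9 oxysterol enzymes 0 were called by limma and 2 had an unadjusted p under 0.05. Cyp7b1, the oxysterol 7-alpha-hydroxylase, had the smallest p. It read 6.92, 8.69 and 7.73 in pools labelled knockout, against 6.77, 6.73 and 6.40 in control pools, without overlap, at 1.15 ± 0.40 (adjusted p = 0.147, and 0.0143 without knockout 1).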

How the data were processed

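Messenger RNA was measured on 6 Affymetrix arrays, 3 of pools labelled Gpr116 knockout and 3 of control pools. The authors deposited log2 values per probe set, computed with RMA; the submitters' processing notes name Affymetrix Expression Console 1.1. RMA corrects background, equalises the distributions of the arrays and summarises each probe set, so a change shared by most genes is removed. Apart from these steps, differences of bright genes may be compressed on such arrays. Array medians were 6.77 to 6.81. No genome build of the array design is stated in the labels.

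Names came from the platform annotation. Of 35556 probe sets, 21789 had 1 symbol, 1621 several and 12146 none. The probe set with the highest mean over the 6 arrays stood for a gene. The groups were compared with limma 3.58.1 in R 4.3.3 (functions lmFit and eBayes, no variance trend, two-sided tests), followed by Benjamini-Hochberg adjustment over all 19938 genes, a threshold of 0.05 and no filter; the fit was tested on simulated data. SDs and SEs are on the log2 scale. The number of arrays limits the precision, and p-values measure the spread between pools of mice.

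The 9 genes, the 9 lists of other cholesterol genes, the 9 lists of cell type markers and the rule for naming genes were chosen with earlier results of these data known, so no test over a list is given. Named were the 9 genes, every called gene of a cholesterol list or else its gene of smallest p, and the 3 genes most like each called one; Pdgfra, Tcf21, Ebp, Fdps and Idi1 were added after values were seen. A listed gene with no such probe set was not analysed here.

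Nothing in the labels says what the replicate numbers mark. Same-numbered arrays of both groups had deviations from their group means that correlated at 0.192, 0.103 and 0.111, each over 0.1, so the numbers were treated as weak pairs in one alternative. The first number in the array titles was 9, 9 and 11 under the knockout label and 8, 8 and 10 in controls; if it marks a batch, batch and group cannot be told apart. Alternatives were the replicate block, each array left out, a filter on dim genes (mean under the median of all genes), a variance trend, a variance weight per group, median centring, the mean of all probe sets, and pool sex (from Xist and Y-linked genes). By these genes 1 pool labelled knockout and 1 control pool were typed as male, so sex varied within both groups.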

Additional observations from a re-analysis of the deposited data

How the results depend on the processing

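Across the alternatives other than leaving out an array, the 9 genes kept 2 calls higher (Scarb1 and Npc2) and 1 lower (Pltp), with Abcg1 and Apob not fitted under the filter on dim genes. The number of other cholesterol genes called lower was 1 under the replicate block and 1 with sex as a covariate, against 2. That is 0.98% in both fits, beside 4.86% and 4.01% of all genes. The block changed no call of the 9 genes. With sex in the model Osbpl3, Scp2, Stard5, Apob and Lss lost their calls, and Osbpl3 did so with median-centred arrays, at adjusted p of 0.0537 to 0.0707. Lss also lost its call with a variance weight per group (0.0547). With 1 array left out, the 9 genes gave 1 to 2 calls higher and 0 to 1 lower, the other cholesterol genes 4 to 14 and 1 to 4, and all genes 144 to 835 and 301 to 1265. These fits have fewer samples. Log2 differences that changed sign there, none called, ranged from -0.19 to 0.06 for Abca1, -0.16 to 0.0067 for Abcg1, -0.50 to 0.068 for Apoe and -0.40 to 0.23 for Lipa. List medians and marker means were not recomputed under the filter. The spread of a gene had a median SD of 0.0907 in pools labelled knockout, against 0.0625 in control pools.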
